A study of Mus musculus with 15 samples.

Results

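The 6 day 0 libraries of an RNA-seq series of 15 are described here. Of these, 3 come from 3T3-L1 cells that carry the label MIGA2-KO, given as MIGA2 depleted, and 3 from wild type 3T3-L1 cells (WT). They were chosen by their labels, as the MIGA2-KO and WT libraries of day 0, and every expressed gene was compared between them. 3T3-L1 is a mouse fibroblast line that turns into fat-storing adipocytes when given a hormone mixture. Day 0 was the moment at which that mixture was added, after the cultures had stood confluent for 2 days, so the libraries hold preadipocytes before differentiation. The sources used here do not give how MIGA2 was depleted, or whether the line is 1 clone or a pool. The other 9 libraries are MIGA2-KO, WT and MIGA2-GFP cells at day 6, and they are used only to ask which day 0 differences were also present later.

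MIGA2 (mitoguardin 2) sits in the outer membrane of mitochondria, where it binds the endoplasmic reticulum proteins VAPA and VAPB and thereby tethers both organelles. It has been tied to lipid droplets and to fat storage in adipocytes. A confluent preadipocyte has left the cell cycle, secretes a fibroblast-like matrix of collagens and proteoglycans, and holds low levels of the factors, C/EBP and PPARγ among them, that drive the later fat cell programme.

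The KO-labelled libraries held 11867305 to 12619058 counts and the WT-labelled libraries 19625147 to 26003871. Levels are given as CPM, counts relative to the TMM-scaled library size, and differences as log2 fold changes (MIGA2-KO over WT) with their standard error (SE). The labels do not name separate cultures for the replicates, and the spread behind each p-value may therefore be technical. The KO-labelled replicates lay close together, with correlations of log2 CPM across genes of 0.993 to 0.994, against 0.957 to 0.992 among the WT-labelled replicates. WT replicate 1 stood apart from the other WT libraries, at 0.970 with replicate 2 and 0.957 with replicate 3. Between the lines, correlations with the KO-labelled libraries were 0.963 to 0.965 for WT replicates 2 and 3. For WT replicate 1 they were 0.923 to 0.925. By this measure WT replicate 3 was closer to the KO-labelled libraries than to WT replicate 1. All 14 preadipocyte or fibroblast markers were measured in both lines, with a summed level of 45100 to 48100 CPM in KO-labelled and 46200 to 56600 CPM in WT-labelled libraries. The sum is set by its most abundant members, with Col1a2 the highest. Col3a1 (-0.41) and Fap (-1.69) were lower at an adjusted p under 0.05 (edgeR quasi-likelihood), and 0 were higher. Fap had 9 counts over the KO-labelled and 58 over the WT-labelled libraries. Without KO-labelled replicate 2 or 3 or WT replicate 2, 0 markers were lower. The adipocyte markers Retn, Cfd and Slc2a4 were at 0 in all 6 libraries, as were Adgre1 and Ptprc of macrophages, Epcam and Cdh1 of epithelium, Myod1 of muscle, Ibsp of bone, Acan of cartilage and Tie1 of endothelium. Other members of these lists did have counts. Lyz2 of macrophages stood at 80.5 to 84.4 CPM in KO-labelled and 73.9 to 107 CPM in WT-labelled libraries. In the same order, Fabp4 of adipocytes stood at 18.6 to 20.7 and 24.8 to 42.9 CPM and Des of muscle at 10.3 to 11.2 and 12.2 to 19.1 CPM. Runx2 of bone stood at 36.3 to 38.3 and 24.3 to 39.0 CPM, and Sox9 of cartilage at 37.6 to 46.7 and 49.65 to 57.4 CPM. Members at 0 do not show that a whole list was absent.

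The gene named in the labels did not go down in mRNA. Miga2 (ENSMUSG00000026858, GRCm38 chr2:30364233-30385521, forward strand) stood at 18.6, 23.1 and 24.4 CPM in the KO-labelled libraries, against 16.9, 19.2 and 14.7 CPM in the WT-labelled libraries. The groups overlapped, and the log2 fold change of 0.38 ± 0.16 (SE) did not pass the test (adjusted p = 0.115, edgeR quasi-likelihood). Without WT replicate 1 the same log2 fold change of 0.38 passed it, as higher in the KO-labelled libraries (adjusted p = 0.046). A count per gene cannot show whether the mRNA still encodes protein, so the label could not be checked from these counts, and all directions below are those of libraries labelled MIGA2-KO. Its paralogue Miga1 had 0.956, 1.82 and 1.32 CPM in KO-labelled and 1.53, 2.12 and 1.25 CPM in WT-labelled libraries (log2 fold change -0.27, adjusted p = 0.557). The tether partners did not pass the test either: the log2 fold change was 0.37 for Vapb (adjusted p = 0.0607) and -0.08 for Vapa (adjusted p = 0.641). Vapb was called higher without WT replicate 1 (0.49, adjusted p = 0.000105), with DESeq2 (0.38, 0.0364), with limma voom (0.47, 8.14e-06) and in a fit of all 15 libraries (0.37, 0.0138). With GC content and length offsets in the edgeR fit, the log2 fold change of Vapb was 0.08 (adjusted p = 0.773). Of 21 genes of mitochondrial fusion, fission and contact sites, 2 were lower and 0 higher, or 9.52% called against 26.3% of all genes. Other fits did call members higher, with 5 higher and 3 lower without WT replicate 1, 2 and 3 without WT replicate 3, 3 and 3 with GC content and length offsets, and 12 and 4 with voom; 1 was lower without any 1 KO-labelled library or WT replicate 2. The 2 lower ones were Vdac3, a pore of the outer membrane (log2 fold change -0.77, adjusted p = 0.00528), and Rhot2, a GTPase of mitochondrial transport (-0.46, adjusted p = 0.0424). The Rhot2 call was lost without any 1 KO-labelled library or WT replicate 2 (adjusted p up to 0.172), with the replicate number as a block (0.0668) and with no filter on low counts (0.052).

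Of 11840 genes tested, 1462 were higher and 1655 lower in the KO-labelled libraries at an adjusted p under 0.05, or 12.3% and 14.0% of the tested genes (26.3% in either direction). The median log2 fold change of all tested genes was -0.02. Among the called genes, 394 were higher and 641 lower by more than 1 on the log2 scale. CPM values of the 2 groups did not overlap for 52.4% of tested genes, so a gap between the groups is by itself a common event here. It held for all 3117 called genes, so a gap adds nothing to a call. Leaving out WT replicate 1 raised the calls to 2945 higher and 2826 lower, while leaving out any 1 KO-labelled library cut them to between 487 and 540 in each direction. Counts in the gene lists moved with these totals, so brackets after a list's count give how many members were higher and lower, in that order, where leaving out a library moved either number by over 1.5 times. In bulk RNA, fewer cells of a kind and less RNA per cell cannot be told apart.

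**Figure D1:**
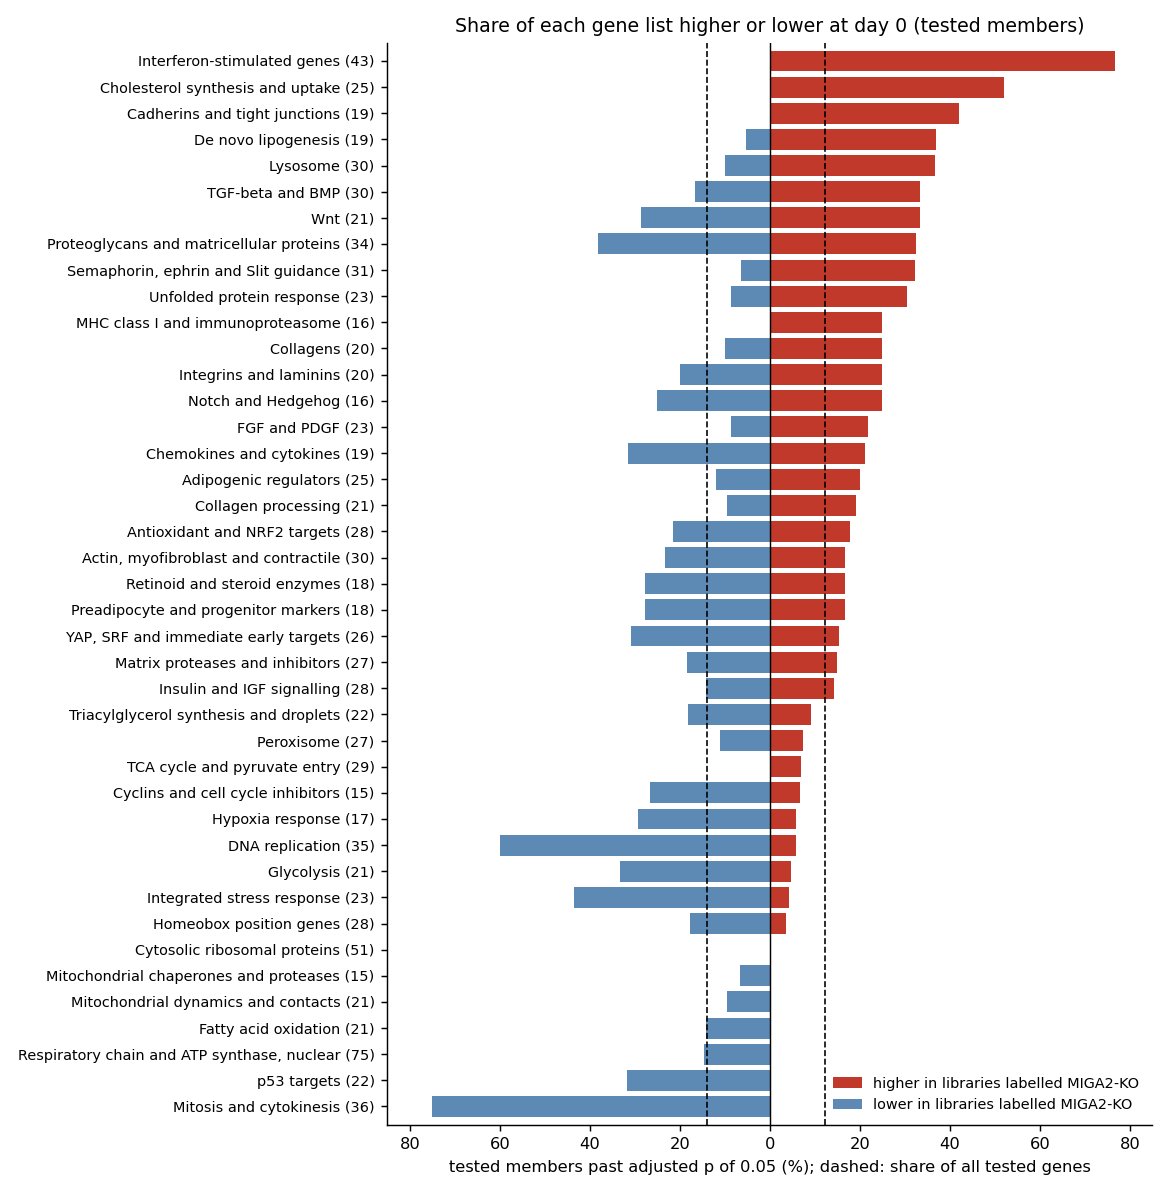
Horizontal bars give, for each gene list with 15 or more tested members (number in brackets), the percentage of tested members that were higher (right, red) or lower (left, blue) in libraries labelled MIGA2-KO than in those labelled WT. Dashed lines mark the 12.3% of all tested genes that were higher and the 14.0% that were lower; interferon-stimulated genes reach farthest to the right and the mitosis list farthest to the left.

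Genes of the type I interferon response were higher as a group. Interferon signals through receptor-bound kinases to a complex with STAT2 and IRF9, which binds a promoter element and switches on antiviral genes. Of 43 tested interferon-stimulated genes, 33 were higher and 0 lower in KO-labelled cells (76.7%, against 12.3% of all tested genes), and the median log2 fold change of the list was 1.03. They included the sensors Ifih1 and Ddx58, the Ifit RNA-binding proteins, the guanylate-binding proteins and the 2′-5′-oligoadenylate synthetases. Paralogues of these families can share reads, so their separate values are less certain than the direction of the family.

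Promoters of 3 of these genes are shown because they hold the letters of the element that this complex binds. The windows span 250 bases before to 50 after the transcription start (RefSeq, GRCm38.p6, written 5′ to 3′ on the gene's strand), and capitals mark each match to GAAA, any 2 bases and GAAA, on either strand (TTTC, any 2 bases and TTTC in reverse). Gbp2 lies at chr3:142620413-142620712 (forward), Ifit1 at chr19:34640639-34640938 (forward) and Oas3 at chr5:120777610-120777909 (reverse).
Gbp2: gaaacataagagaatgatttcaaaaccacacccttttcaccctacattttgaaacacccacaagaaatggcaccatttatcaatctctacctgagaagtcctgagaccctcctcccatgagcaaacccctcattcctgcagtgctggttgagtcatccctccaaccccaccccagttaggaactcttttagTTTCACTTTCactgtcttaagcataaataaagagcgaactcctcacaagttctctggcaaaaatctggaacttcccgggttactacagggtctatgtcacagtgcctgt
Ifit1: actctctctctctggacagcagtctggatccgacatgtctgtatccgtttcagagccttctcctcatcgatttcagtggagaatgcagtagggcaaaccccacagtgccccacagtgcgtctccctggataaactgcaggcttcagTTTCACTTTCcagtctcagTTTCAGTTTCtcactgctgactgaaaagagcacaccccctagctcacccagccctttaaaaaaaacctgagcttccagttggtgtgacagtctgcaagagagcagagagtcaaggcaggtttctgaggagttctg
Oas3: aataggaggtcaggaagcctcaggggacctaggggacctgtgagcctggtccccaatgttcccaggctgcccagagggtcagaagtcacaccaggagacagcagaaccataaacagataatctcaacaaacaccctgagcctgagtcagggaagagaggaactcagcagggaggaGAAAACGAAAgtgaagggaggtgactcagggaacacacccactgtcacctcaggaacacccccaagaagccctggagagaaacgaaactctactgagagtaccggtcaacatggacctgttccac
The motif was in the window of 18 of the 25 called interferon-stimulated genes that had a promoter entry (72.0%), in 2 of the 7 members that were not called, and in 3.8% of the windows of 9166 tested genes. A match describes these letters only and does not show that the complex was bound.

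Gbp2, a guanylate-binding GTPase of the antiviral response, stood at 96.1, 99.4 and 92.7 CPM in KO-labelled libraries, against 22.1, 22.4 and 24.3 CPM in WT-labelled libraries. Its log2 fold change was 2.07 ± 0.11 (adjusted p = 0.000139), and the lowest KO-labelled library was far above the highest WT-labelled library. Oas3, which makes the second messenger that activates RNase L, had 6.61, 7.19 and 8.24 CPM in KO-labelled and 0.716, 0.439 and 0.223 CPM in WT-labelled libraries (log2 fold change 4.0 ± 0.33, adjusted p = 0.000615), the steepest of the list. Oas2 of the same family rose by 2.46 ± 0.15, with 41.1 to 45.1 CPM in KO-labelled and 6.55 to 8.71 CPM in WT-labelled libraries (adjusted p = 0.000219). Ifit1, which binds foreign 5′ RNA ends, had 178, 181 and 179 CPM in KO-labelled and 64.6, 67.8 and 75.7 CPM in WT-labelled libraries (log2 fold change 1.37 ± 0.11, adjusted p = 0.000461). Lgals3bp, a secreted galectin-binding glycoprotein, rose by 1.28 ± 0.09 (adjusted p = 0.000385), with 994 to 1010 CPM against 396 to 424 CPM. For each of these genes the 2 groups were separate in every library, as they were for all called genes.

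Stat2 and Irf9 of the signalling complex were higher as well, and both are named for that role, chosen after their values were seen. Stat2 had 255, 257 and 256 CPM in KO-labelled and 86.2, 107 and 105 CPM in WT-labelled libraries (1.36 ± 0.12, adjusted p = 0.000668). Irf9 rose less, by 0.46 ± 0.1, with 69.0 to 75.2 CPM in KO-labelled and 50.5 to 53.1 CPM in WT-labelled libraries (adjusted p = 0.0164). The groups did not overlap for either gene, as for all called genes. The Irf9 call was lost when any 1 KO-labelled library or WT replicate 2 was left out (adjusted p up to 0.0959). With 1 library left out, 25 to 40 interferon-stimulated genes were higher and 0 lower.

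Of 16 tested genes of antigen presentation by class I molecules, 4 were higher and 0 lower (2 and 0 without any 1 KO-labelled library, 10 and 0 without WT replicate 1, 2 and 0 without WT replicate 2). The share called was just under the 26.3% of all genes called in either direction, and above the 12.3% called higher. Tapbp, the chaperone tapasin that helps load peptides, had 891, 862 and 867 CPM in KO-labelled and 492, 395 and 336 CPM in WT-labelled libraries (log2 fold change 1.1 ± 0.15, adjusted p = 0.00283). B2m, the light chain shared by class I molecules, rose by 0.75 ± 0.13 (adjusted p = 0.00665), with 2685 to 2765 CPM against 1454 to 1900 CPM. The class I genes H2-T23 (0.6 ± 0.17, adjusted p = 0.0373) and H2-Q4 (1.22 ± 0.35, adjusted p = 0.0387) lost the call without any 1 KO-labelled library or WT replicate 2 (H2-T23 also without WT replicate 3), with adjusted p up to 0.15. H2-T23 also missed the threshold under upper-quartile scaling (adjusted p = 0.0519) and with thinned WT libraries (0.0607). They belong to a family of near-identical genes whose reads can be shared.

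Secreted immune signals went both ways, with 4 of 19 tested chemokines and cytokines higher and 6 lower, or 52.6% called against 26.3% of all genes. Cx3cl1 (fractalkine), a membrane-bound chemokine, had 1.65, 0.744 and 1.75 CPM in KO-labelled and 39.1, 46.6 and 39.5 CPM in WT-labelled libraries (log2 fold change -4.92 ± 0.26, adjusted p = 0.000139). Cxcl16, the other transmembrane chemokine, had 0 counts in the 3 KO-labelled libraries and 77 over the WT-labelled libraries. Setting the KO-labelled group at 3 counts, the level was at least 13-fold lower. Csf1, the growth factor of macrophages, was higher, at 634 to 637 CPM in KO-labelled and 340 to 374 CPM in WT-labelled libraries (log2 fold change 0.82 ± 0.1, adjusted p = 0.00154). Complement genes were called more often than all genes (26.3%). They split 4 higher and 2 lower of 12 (2 and 0 without any 1 KO-labelled library, 3 and 1 without WT replicate 2). Among them C1ra, a protease of the C1 complex, rose by 0.7 ± 0.1 (adjusted p = 0.00325). C3 rose by 0.47 ± 0.11 (adjusted p = 0.0181), a call lost without any 1 KO-labelled library (adjusted p up to 0.0949).

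**Figure D2:**
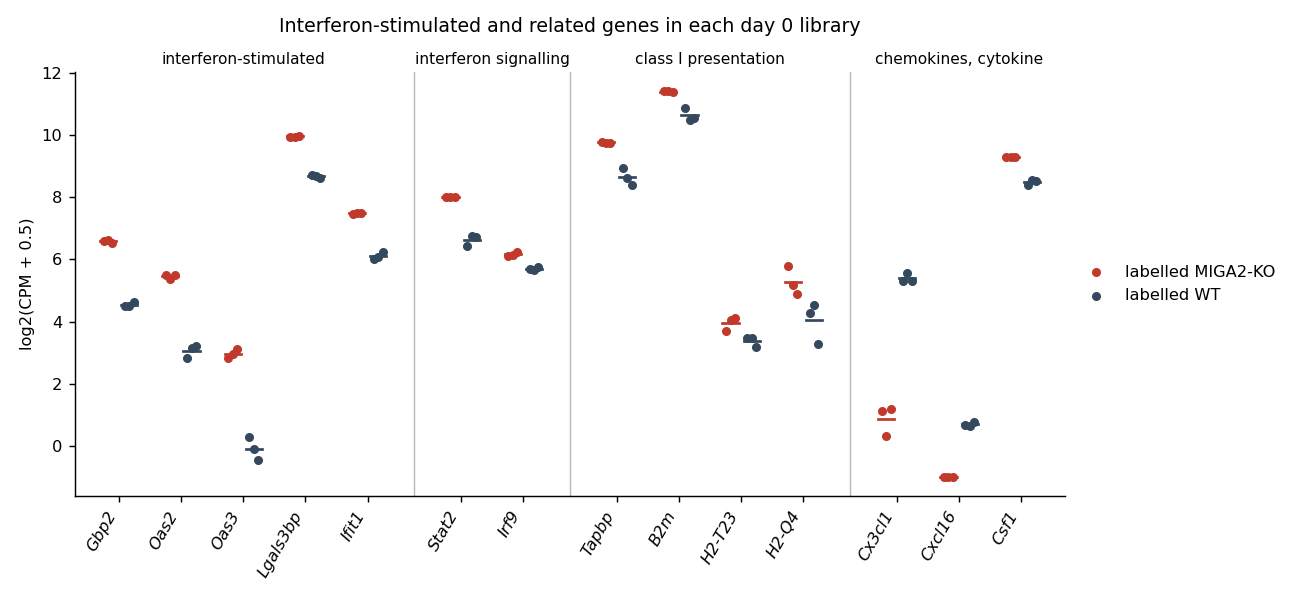
Each point is 1 day 0 library, with libraries labelled MIGA2-KO in red on the left of each gene and those labelled WT in dark blue on the right; the vertical axis is log2(CPM + 0.5) and short lines are means of the 3 points. The red points lie above the blue points for every gene shown except Cx3cl1 and Cxcl16, where they lie below.

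Cell division genes were lower. Mitosis and DNA replication each use a set of genes that cycling cells switch on together and resting cells repress. Of 36 tested mitosis and cytokinesis genes, 27 were lower and 0 higher (75.0%, against 14.0% of all tested genes), with a median log2 fold change of -0.95. Of 35 tested DNA replication genes, 21 were lower and 2 higher, or 65.7% called against 26.3% of all genes, with a median of -0.64. The 2 higher ones were the transcription factor E2f1 (0.54, adjusted p = 0.0293) and Rrm1, the large subunit of ribonucleotide reductase (0.65, adjusted p = 0.00693). The E2f1 call was lost without any 1 KO-labelled library or WT replicate 2 (adjusted p up to 0.116). With 1 library left out, 15 to 33 mitosis genes and 5 to 25 replication genes were lower. Mitosis calls numbered 15, 20 and 16 without KO-labelled replicate 1, 2 and 3, and replication calls 8, 5 and 5. Without WT replicate 2, 13 replication genes were lower.

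Bub1b, a kinase of the spindle checkpoint, had 4.17, 4.22 and 4.65 CPM in KO-labelled and 11.1, 10.9 and 12.9 CPM in WT-labelled libraries (log2 fold change -1.42 ± 0.16, adjusted p = 0.0013). Kif20a, a kinesin of the central spindle, fell by 1.17 ± 0.13 (adjusted p = 0.00154), with 9.18 to 11.1 CPM against 21.4 to 23.5 CPM. Cenpa, the histone variant of the centromere, had 2.61, 2.65 and 2.02 CPM in KO-labelled and 13.1, 8.13 and 8.97 CPM in WT-labelled libraries (log2 fold change -2.04 ± 0.25, adjusted p = 0.00178). No KO-labelled value of these genes reached the lowest WT-labelled value, as was so for every gene called lower. Kif2c, a kinesin that depolymerises microtubules at the centromere, fell by 1.58 ± 0.19 (adjusted p = 0.00167).

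The promoters of Bub1b and Kif2c are shown because resting cells repress many mitotic genes through the cell cycle genes homology region, with the letters TTTGAA. Capitals mark the match on either strand (TTCAAA in reverse) in the same RefSeq windows, chr2:118597961-118598260 (forward) for Bub1b and chr4:117178723-117179022 (reverse) for Kif2c.
Bub1b: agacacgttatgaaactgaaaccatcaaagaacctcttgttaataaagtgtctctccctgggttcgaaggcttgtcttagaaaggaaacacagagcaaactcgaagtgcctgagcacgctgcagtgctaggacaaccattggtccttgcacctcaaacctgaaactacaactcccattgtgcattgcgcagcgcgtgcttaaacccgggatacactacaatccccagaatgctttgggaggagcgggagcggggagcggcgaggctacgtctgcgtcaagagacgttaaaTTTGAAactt
Kif2c: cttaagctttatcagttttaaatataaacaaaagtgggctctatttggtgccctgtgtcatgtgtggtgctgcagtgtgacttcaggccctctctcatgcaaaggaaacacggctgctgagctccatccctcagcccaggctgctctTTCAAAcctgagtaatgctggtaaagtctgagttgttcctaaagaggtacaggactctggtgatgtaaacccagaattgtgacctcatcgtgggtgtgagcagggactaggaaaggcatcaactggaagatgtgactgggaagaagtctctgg
The letters were in 17 of the 22 called mitosis genes with a promoter entry (77.3%), in 5 of the 7 members that were not called, and in 14.0% of the windows of all tested genes.

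Among replication genes, Mcm5 of the replicative helicase had 4.96, 3.88 and 4.74 CPM in KO-labelled and 16.4, 13.5 and 14.3 CPM in WT-labelled libraries (log2 fold change -1.7 ± 0.17, adjusted p = 0.000907). Mcm3 of the same helicase fell by 1.06 ± 0.13 (adjusted p = 0.00194). Orc6, a subunit of the origin recognition complex, fell by 1.39 ± 0.21 (adjusted p = 0.00442). Rrm2, the regulated subunit of ribonucleotide reductase, fell by 0.83 ± 0.14 (adjusted p = 0.00614). Of 15 tested cyclins, their kinases and cell cycle inhibitors, 1 was higher and 4 lower, or 33.3% called against 26.3% of all genes (0 and 2 without any 1 KO-labelled library, 2 and 5 without WT replicate 3), with a median log2 fold change of -0.03. The 4 lower genes all encode inhibitors of cyclin-dependent kinases, which hold cells in G1, while the inhibitors Cdkn1b (0.22, adjusted p = 0.425) and Cdkn2a (-0.71, adjusted p = 0.127) did not pass the test. Cdkn2b had 67.7, 61.3 and 57.4 CPM in KO-labelled and 150, 113 and 107 CPM in WT-labelled libraries (log2 fold change -0.99 ± 0.16, adjusted p = 0.00498). Cdkn2c fell by 0.99 ± 0.15 (adjusted p = 0.00433) and Cdkn2d by 0.88 (adjusted p = 0.0426). Cdkn1a (p21) fell by 0.61 ± 0.12 (adjusted p = 0.0119) and the G1 cyclin Ccnd1 rose by 0.45 ± 0.09 (adjusted p = 0.0137). Both of these calls were lost without any 1 KO-labelled library (adjusted p up to 0.0846). The Cdkn2d call was lost without any 1 KO-labelled library or WT replicate 2. Of 22 tested p53 targets, of which Cdkn1a is one, 7 were lower and 0 higher (31.8%, against 14.0% of all tested genes). Without any 1 KO-labelled library 2 to 3 were lower, without WT replicate 1 there were 4 higher and 11 lower, and without WT replicate 3 there were 1 and 9. Voom gave 4 and 12, and GC content and length offsets 3 and 8.

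Genes of the secreted matrix went both ways. Proteoglycans and matricellular proteins had 11 members higher and 13 lower of 34 tested (6 to 7 and 9 without any 1 KO-labelled library), a share of 70.6% called against 26.3% of all genes, with a median log2 fold change of 0.17. Decorin and lumican, small leucine-rich proteoglycans that bind collagen fibrils, were much lower. Dcn had 36.1, 34.6 and 37.9 CPM in KO-labelled and 254, 287 and 319 CPM in WT-labelled libraries (log2 fold change -2.99 ± 0.13, adjusted p = 0.000139). Lum had 0.609, 0.909 and 1.23 CPM in KO-labelled and 30.5, 32.3 and 39.2 CPM in WT-labelled libraries (-5.21 ± 0.24, adjusted p = 0.000139). Fmod (fibromodulin), of the same family, fell by 1.93 ± 0.14 (adjusted p = 0.000333), with 4.70 to 5.44 CPM against 18.5 to 19.8 CPM. Biglycan went the other way. Bgn stood at 15380, 15350 and 16530 CPM in KO-labelled and 10090, 11670 and 11100 CPM in WT-labelled libraries (0.52 ± 0.11, adjusted p = 0.0134). The groups were separate for all of these family members, as for all called genes. Only the Bgn call was lost without any 1 KO-labelled library (adjusted p up to 0.082).

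Elastic fibre and cell-surface matrix genes showed the same mixture. Fbn1, for the microfibril protein fibrillin, had 529, 541 and 555 CPM in KO-labelled and 148, 248 and 265 CPM in WT-labelled libraries (log2 fold change 1.3 ± 0.21, adjusted p = 0.00523). Mfap4, a microfibril-associated protein, fell by 1.89 ± 0.14 (adjusted p = 0.000399). Vcan (versican), a large hyaluronan-binding proteoglycan, had 448, 453 and 445 CPM in KO-labelled and 608, 1117 and 1293 CPM in WT-labelled libraries (-1.17 ± 0.25, adjusted p = 0.0148). WT replicate 1 was the lowest of the 3 WT-labelled libraries for Vcan and Fbn1, and without it the log2 fold change was -1.42 for Vcan and 1.08 for Fbn1. The Vcan call was lost without any 1 KO-labelled library or WT replicate 2 (adjusted p up to 0.0682). Spp1 (osteopontin) fell by 0.8 ± 0.11 (adjusted p = 0.00272), with 524 to 544 CPM against 842 to 1004 CPM. In a fit of all 15 libraries its adjusted p was 0.23. In the osteoblast marker list, of which Spp1 is the main contributor, the summed level was 562 to 580 CPM in KO-labelled and 881 to 1030 CPM in WT-labelled libraries.

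Of 20 tested collagens, 5 were higher and 2 lower, or 35.0% called against 26.3% of all genes (1 and 1 without any 1 KO-labelled library, 6 and 5 without WT replicate 1, 5 and 1 without WT replicate 2, 4 and 1 without WT replicate 3). Col4a2 of basement membranes had 2263, 2284 and 2148 CPM in KO-labelled and 1139, 1519 and 1247 CPM in WT-labelled libraries (log2 fold change 0.78 ± 0.13, adjusted p = 0.00607). Col18a1, also of basement membranes, rose by 0.51 ± 0.12 (adjusted p = 0.0193), a call lost without any 1 KO-labelled library (adjusted p up to 0.0909). Col15a1, its closest relative, had 1 count over the KO-labelled and 188 over the WT-labelled libraries, a ratio of WT to KO of 95 (95% counting interval 16.8 to 3770). The fibrillar Col3a1 was lower by 0.41 ± 0.12 (adjusted p = 0.0456), a call lost without any 1 KO-labelled library or WT replicate 2 or 3 (adjusted p up to 0.167), with median-ratio scaling (0.0504) and with the replicate number as a block (0.0752). Among collagen-processing enzymes, 4 of 21 were higher and 2 lower, or 28.6% called (2 and 0 without any 1 KO-labelled library, 9 and 4 without WT replicate 1, 4 and 1 without WT replicate 2). The crosslinking enzyme Lox had 3688, 3609 and 3550 CPM in KO-labelled and 1138, 1840 and 2069 CPM in WT-labelled libraries (1.1 ± 0.21, adjusted p = 0.00935), and Loxl3 rose by 0.87 ± 0.1 (adjusted p = 0.00132).

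Laminin chains, which set the type of basement membrane, went both ways. Lama2 had 0.696, 1.32 and 0.877 CPM in KO-labelled and 9.31, 14.8 and 15.5 CPM in WT-labelled libraries (log2 fold change -3.76 ± 0.31, adjusted p = 0.00063). Lama4 had 64.9, 64.2 and 67.7 CPM in KO-labelled and 214, 262 and 271 CPM in WT-labelled libraries (-1.92 ± 0.12, adjusted p = 0.000237). Lama5 was higher, at 34.3, 32.4 and 31.0 CPM in KO-labelled and 7.17, 10.8 and 7.77 CPM in WT-labelled libraries (1.92 ± 0.18, adjusted p = 0.000758). Itga3, the α chain of a laminin-binding integrin, rose by 1.21 ± 0.14 (adjusted p = 0.0014). Over integrins and laminins together, 5 of 20 were higher and 4 lower, or 45.0% called against 26.3% of all genes (3 to 4 and 4 without any 1 KO-labelled library, 8 and 4 without WT replicate 1).

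Of 27 matrix proteases and inhibitors, 4 were higher and 5 lower (2 and 2 without any 1 KO-labelled library, 9 and 12 without WT replicate 1, 7 and 6 without WT replicate 3), or 33.3% called against 26.3% of all genes. Mmp13, the interstitial collagenase of rodents, had 11.5, 12.7 and 10.2 CPM in KO-labelled and 45.6, 50.1 and 55.4 CPM in WT-labelled libraries (log2 fold change -2.14 ± 0.14, adjusted p = 0.000245). Ctsk (cathepsin K) fell by 1.92 ± 0.14, with 48.7 to 52.7 CPM against 172 to 225 CPM (adjusted p = 0.000333). Mmp2, a gelatinase, fell by 0.55 ± 0.1 (adjusted p = 0.00701), a call lost without any 1 KO-labelled library (adjusted p up to 0.0666). Plau, for the plasminogen activator urokinase, rose by 1.03 ± 0.13 (adjusted p = 0.0019).

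**Figure D3:**
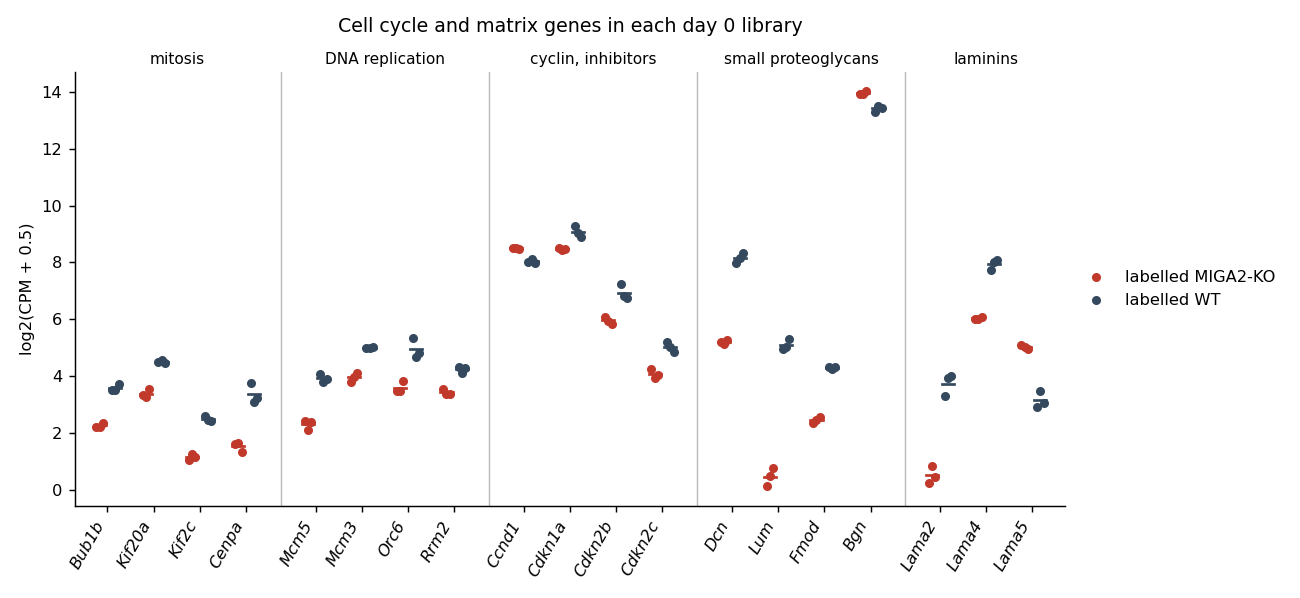
Each point is 1 day 0 library, with libraries labelled MIGA2-KO in red on the left of each gene and those labelled WT in dark blue on the right; the vertical axis is log2(CPM + 0.5) and short lines are means of the 3 points. The mitosis and replication genes, the 3 plotted kinase inhibitors, Dcn, Lum, Fmod, Lama2 and Lama4 are lower in red, while Ccnd1, Bgn and Lama5 are higher in red.

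Of 30 tested actin, myofibroblast and contractile genes, 5 were higher and 7 lower, or 40.0% called against 26.3% of all genes (1 and 5 without any 1 KO-labelled library, 9 and 12 without WT replicate 1, 3 and 6 without WT replicate 2). Tagln (transgelin), an actin-binding protein of smooth muscle, had 2.61, 2.48 and 3.16 CPM in KO-labelled and 21.4, 13.9 and 14.6 CPM in WT-labelled libraries (log2 fold change -2.59 ± 0.23, adjusted p = 0.000705). Tpm4, a tropomyosin, fell by 0.73 ± 0.1 (adjusted p = 0.00296). Myh9, the heavy chain of non-muscle myosin, had 1362, 1378 and 1364 CPM in KO-labelled and 380, 612 and 488 CPM in WT-labelled libraries (1.47 ± 0.17, adjusted p = 0.00158). Of the immediate early genes, Fos fell by 1.66 ± 0.16 (adjusted p = 0.000906) and Egr1 by 1.26 ± 0.15 (adjusted p = 0.00153). The receptor kinase Axl, in the same list of YAP, SRF and immediate early targets, rose by 1.02 ± 0.11 (adjusted p = 0.00126). In that list 4 of 26 members were higher and 8 lower, or 46.2% called (2 and 6 without any 1 KO-labelled library, 7 and 11 without WT replicate 1).

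Regulators of adipogenesis were 5 higher and 3 lower of 25 tested, or 32.0% called against 26.3% of all genes (1 to 2 and 1 to 2 without any 1 KO-labelled library, 10 and 6 without WT replicate 1). The 2 master factors of the fat cell differed in direction. Cebpa, for C/EBPα, had 1.04, 0.413 and 0.263 CPM in KO-labelled and 6.91, 6.0 and 5.49 CPM in WT-labelled libraries (log2 fold change -3.41 ± 0.37, adjusted p = 0.00131). Pparg had 28.0, 29.8 and 28.1 CPM in KO-labelled and 17.1, 14.6 and 15.5 CPM in WT-labelled libraries (0.87 ± 0.12, adjusted p = 0.00335). Its dimer partner Rxra rose by 0.59 ± 0.11 (adjusted p = 0.00808; 0.057 without KO-labelled replicate 3). Twist1, a transcription factor of mesenchymal progenitors, fell by 0.85 ± 0.17 (adjusted p = 0.0114; up to 0.0682 without KO-labelled replicate 2 or 3). Pparg and Cebpa did not overlap between the groups, as no called gene did.

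Few adipocyte genes had enough counts to be tested at this stage, 9 of 21, of which 3 were higher and 1 lower, or 44.4% called against 26.3% of all genes (2 and 0 without any 1 KO-labelled library, 3 and 2 without WT replicate 1). Plin4, a lipid droplet coat protein, had 106, 105 and 110 CPM in KO-labelled and 62.3, 65.9 and 65.3 CPM in WT-labelled libraries (log2 fold change 0.73 ± 0.1, adjusted p = 0.00269). Lpl, the lipoprotein lipase, had 1201, 1233 and 1224 CPM in KO-labelled and 678, 737 and 824 CPM in WT-labelled libraries (0.71 ± 0.11, adjusted p = 0.00457). Fabp4, the adipocyte fatty acid carrier, was lower by 0.72 ± 0.21 (adjusted p = 0.04), a call lost without any 1 KO-labelled library (adjusted p up to 0.139), and by 0.45 without WT replicate 1. Among progenitor markers, 3 of 18 were higher and 5 lower, or 44.4% called (1 to 2 and 2 to 3 without any 1 KO-labelled library, 6 and 7 without WT replicate 1, 2 and 3 without WT replicate 2). Cd24a, a surface marker of early adipocyte precursors, had 3.83, 3.97 and 3.86 CPM in KO-labelled and 18.2, 18.7 and 19.1 CPM in WT-labelled libraries (-2.26 ± 0.14, adjusted p = 0.000219). Pi16, a marker of fibroblast-like progenitors, fell by 2.23 ± 0.25 (adjusted p = 0.0014). Vcam1, an adhesion molecule of stromal cells, rose by 0.75 ± 0.15 (adjusted p = 0.0101; 0.0514 without KO-labelled replicate 3).

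Several lipid synthesis genes were higher. Of 25 tested genes of cholesterol synthesis and uptake, 13 were higher and 0 lower (52.0%, against 12.3% of all tested genes), with a median log2 fold change of 0.33. These genes are switched on by the membrane-bound factor SREBP2 when sterols in the endoplasmic reticulum are low. Scap, the escort of SREBP, had 245, 233 and 217 CPM in KO-labelled and 124, 132 and 106 CPM in WT-labelled libraries (0.94 ± 0.12, adjusted p = 0.00202). The enzymes Sc5d (0.82 ± 0.13, adjusted p = 0.0047) and Lss (0.73 ± 0.13, adjusted p = 0.00766) rose by similar amounts. A sterol regulatory element, searched as ATCAC, any base and CCAC on both strands, was in 0 of the 18 promoter windows of this list and in 0.185% of all windows. With 1 library left out, 4 to 16 members were higher and 0 to 4 lower, with 4 higher without each KO-labelled library and 4 lower without WT replicate 1. Members lower were also 4 with voom and 3 with GC content and length offsets.

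Of 19 tested genes of fatty acid synthesis, 7 were higher and 1 lower, or 42.1% called against 26.3% of all genes, with a median log2 fold change of 0.38. Scd1, the desaturase that makes oleate, had 366, 363 and 382 CPM in KO-labelled and 150, 171 and 194 CPM in WT-labelled libraries (1.11 ± 0.12, adjusted p = 0.00128; 0.0554 in a fit of all 15 libraries). Fasn, the fatty acid synthase, had 358, 355 and 333 CPM in KO-labelled and 207, 244 and 188 CPM in WT-labelled libraries (0.71 ± 0.12, adjusted p = 0.00666). Fads2, a desaturase of polyunsaturated fatty acids, rose by 1.03 ± 0.18 (adjusted p = 0.0072). Triacylglycerol synthesis and droplet genes were 2 higher and 4 lower of 22, or 27.3% called, near the share of all genes (0 and 0 without any 1 KO-labelled library, 7 and 5 without WT replicate 1, 0 and 1 without WT replicate 2). The acyltransferase Dgat2 had 1.39, 1.65 and 2.10 CPM in KO-labelled and 3.79, 3.08 and 2.99 CPM in WT-labelled libraries (-0.93 ± 0.23, adjusted p = 0.0253). The lipase Mgll fell by 2.1 ± 0.51 (adjusted p = 0.0235). Both calls were lost without any 1 KO-labelled library (adjusted p up to 0.114), that of Dgat2 also without WT replicate 2 and in a fit of all 15 libraries (0.437). With 1 library left out, 3 to 13 fatty acid synthesis genes were higher, the 3 without each KO-labelled library and the 13 without WT replicate 1.

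Of 18 retinoid and steroid enzymes, 3 were higher and 5 lower, or 44.4% called against 26.3% of all genes (3 and 2 without any 1 KO-labelled library, 6 and 7 without WT replicate 1). Aldh1a7, a member of the aldehyde dehydrogenase family that includes the retinal dehydrogenases, had 7.91, 7.61 and 8.16 CPM in KO-labelled and 0.972, 1.46 and 1.56 CPM in WT-labelled libraries (log2 fold change 2.55 ± 0.21, adjusted p = 0.00063). It is nearly identical in sequence to Aldh1a1, so reads may be shared.

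Of 28 tested insulin and IGF genes, 4 were higher and 4 lower (1 and 3 without any 1 KO-labelled library, 14 and 6 without WT replicate 1, 2 and 3 without WT replicate 2, 7 and 5 without WT replicate 3), a share of 28.6% called against 26.3% of all genes. The genes below were picked for the size of their changes. Igf1, the insulin-like growth factor, had 10.6, 9.34 and 11 CPM in KO-labelled and 30.6, 31.1 and 38.2 CPM in WT-labelled libraries (log2 fold change -1.69 ± 0.15, adjusted p = 0.000705). Its carrier Igfbp3 had 1.22, 0.827 and 1.05 CPM in KO-labelled and 8.39, 8.60 and 9.24 CPM in WT-labelled libraries (-3.08 ± 0.2, adjusted p = 0.000245), and the carrier Igfbp4 fell by 1.13 ± 0.17 (adjusted p = 0.00395). The receptor Igf1r was higher, at 91.9, 87.0 and 97.9 CPM in KO-labelled and 26.9, 41.9 and 41.4 CPM in WT-labelled libraries (1.33 ± 0.18, adjusted p = 0.00301). Outside that list was Socs2, a feedback inhibitor of growth hormone signalling through STAT5. It had 1.39, 0.661 and 1.23 CPM in KO-labelled and 46.4, 36.0 and 42.0 CPM in WT-labelled libraries (-5.24 ± 0.25, adjusted p = 0.000139). None of these 5 genes overlapped between the groups, as no called gene did.

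In the Hedgehog pathway, PTCH1 is the receptor and, with GLI1 and HHIP, a transcriptional target of the pathway. Gli1 had 7.74, 6.70 and 7.72 CPM in KO-labelled and 1.43, 1.94 and 1.16 CPM in WT-labelled libraries (log2 fold change 2.27 ± 0.23, adjusted p = 0.001). Ptch1 had 41.4, 41.4 and 40.7 CPM in KO-labelled and 6.40, 12.6 and 15.3 CPM in WT-labelled libraries (1.84 ± 0.28, adjusted p = 0.00446). Hhip, a decoy receptor for Hedgehog ligands, was lower, at 0.348, 0.248 and 0.351 CPM in KO-labelled and 3.74, 6.11 and 7.46 CPM in WT-labelled libraries (-4.17 ± 0.4, adjusted p = 0.000837). So 2 targets were higher and 1 lower in the same libraries. The list of Notch and Hedgehog genes had 4 higher and 4 lower of 16 (2 and 2 without any 1 KO-labelled library, 7 and 4 without WT replicate 1, 4 and 2 without WT replicate 2). The share of this list that was called was above the 26.3% of all genes.

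Of 21 tested Wnt genes, 7 were higher and 6 lower, or 61.9% called against 26.3% of all genes (2 and 5 to 6 without any 1 KO-labelled library, 3 and 6 without WT replicate 2). The higher ones included 4 Frizzled receptors and the co-receptor Lrp6, and the lower ones the ligands Wnt4 and Wnt9a and the receptor Ror2, members given after their values were seen. The receptor Fzd4 had 28.8, 28.1 and 30.3 CPM in KO-labelled and 7.17, 8.64 and 10.7 CPM in WT-labelled libraries (log2 fold change 1.72 ± 0.17, adjusted p = 0.000943). The ligand Wnt4 had 0.261, 0.248 and 0.789 CPM in KO-labelled and 5.58, 4.79 and 4.06 CPM in WT-labelled libraries (-3.46 ± 0.38, adjusted p = 0.00133). TGF-β and BMP genes were 10 higher and 5 lower of 30 (5 and 3 to 4 without any 1 KO-labelled library, 6 and 4 without WT replicate 2). Their share called was also above the 26.3% of all genes. The BMP receptor Acvrl1 rose by 1.61 ± 0.14 (adjusted p = 0.000705) and the inhibitor of differentiation Id4 by 2.12 ± 0.2 (adjusted p = 0.000796), while the TGF-β-induced matrix protein Tgfbi fell by 1.09 ± 0.1, with 102 to 112 CPM against 219 to 229 CPM (adjusted p = 0.000705). Of FGF and PDGF genes, Fgf7 rose by 1.21 ± 0.15 (adjusted p = 0.0019) and the PDGF receptor-like Pdgfrl fell by 2.32 ± 0.12, with 29.0 to 34.5 CPM against 149 to 170 CPM (adjusted p = 0.000139).

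Of 31 tested semaphorin, ephrin, netrin and Slit genes, 10 were higher and 2 lower, or 38.7% called against 26.3% of all genes (4 to 5 and 2 without any 1 KO-labelled library, 16 and 8 without WT replicate 1, 11 and 4 without WT replicate 3), with a median log2 fold change of 0.43. Sema3f, a secreted repellent, rose by 1.06 ± 0.13 (adjusted p = 0.00201), and Plxnb2, a semaphorin receptor, by 0.88 ± 0.11 (adjusted p = 0.00202). The 2 lower ones were Ntn1 and Sema7a. Ntn1 (netrin 1) had 7.30, 8.85 and 7.02 CPM in KO-labelled and 46.1, 63.6 and 61.1 CPM in WT-labelled libraries (-2.88 ± 0.18, adjusted p = 0.000219). The membrane-anchored Sema7a had 0.087, 0.661 and 0.614 CPM in KO-labelled and 9.11, 10.8 and 10.6 CPM in WT-labelled libraries (-4.46 ± 0.38, adjusted p = 0.000688). Of 19 cadherin and junction genes, 8 were higher and 0 lower, or 42.1% called (3 and 0 without any 1 KO-labelled library, 11 and 3 without WT replicate 1, 3 and 0 without WT replicate 2, and 10 and 3 with voom and with GC content and length offsets). F11r, the junctional adhesion molecule A of epithelia, endothelia and blood cells, had 10.8, 12 and 9.38 CPM in KO-labelled and 1.74, 1.21 and 2.01 CPM in WT-labelled libraries (2.7 ± 0.23, adjusted p = 0.000645). Beside it, the epithelial or mesothelial marker list summed to 8.94 to 11.5 CPM in KO-labelled and 5.0 to 6.91 CPM in WT-labelled libraries, most of it Msln, with Epcam and Cdh1 at 0. The endothelial list summed to 2.54 to 2.65 CPM in KO-labelled and 2.77 to 3.38 CPM in WT-labelled libraries.

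Of the respiratory chain, the mitochondrial DNA encodes a few subunits and the nucleus all others. Of the 7 mitochondrially encoded mRNAs tested, 6 were higher and 0 lower, or 85.7% called against 26.3% of all genes (3 and 0 without any 1 KO-labelled library, and 4 and 0 under upper-quartile scaling), with a median log2 fold change of 0.78. mt-Nd2 of complex I had 6655, 6642 and 6594 CPM in KO-labelled and 1551, 2143 and 2425 CPM in WT-labelled libraries (1.7 ± 0.17, adjusted p = 0.001). mt-Nd1 of the same complex had 8645, 8852 and 8541 CPM in KO-labelled and 3700, 3733 and 4721 CPM in WT-labelled libraries (1.1 ± 0.13, adjusted p = 0.00159). mt-Co1 of complex IV rose by 0.71 ± 0.21 (adjusted p = 0.0449), a call lost without any 1 KO-labelled library or WT replicate 2 (adjusted p up to 0.124), and under upper-quartile scaling (0.0572). Counts of all mitochondrial genes made up 4.69% to 4.77% of the KO-labelled libraries, against 2.07%, 2.95% and 3.44% of the WT-labelled libraries.

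Of 75 tested respiratory chain and ATP synthase genes of the nucleus, 0 were higher and 11 lower, near the 14.0% of all tested genes that were lower, with a median log2 fold change of -0.57. Atp5o of the ATP synthase had 114, 120 and 119 CPM in KO-labelled and 362, 200 and 197 CPM in WT-labelled libraries (-1.11 ± 0.24, adjusted p = 0.014). WT replicate 1 was the highest, and without it the change was -0.75, the list median -0.21 and the list count 5 higher and 33 lower. Without a KO-labelled library, 0 or 1 of the list was lower, and without WT replicate 3 it was 31. Over the other scalings, tools, filters and sample sets the lower count ran from 11 to 43, the 43 with voom. The calls of Atp5o and of Ndufv3, an accessory subunit of complex I (-1.11 ± 0.21, adjusted p = 0.00923), were lost without KO-labelled libraries (adjusted p up to 0.0674). These mRNAs are short, and the difference between the lines ran with transcript length across all genes (r = 0.32). Among the WT-labelled libraries, deviations from their mean correlated with length at -0.599, 0.463 and 0.523 in replicates 1, 2 and 3. The list of cytosolic ribosomal proteins, also short mRNAs, had 0 of 51 called and a median of -0.35. Other fits called 8 higher and 13 lower without WT replicate 1 (median -0.03), 14 lower without WT replicate 3, 5 higher and 22 lower with voom, and 9 lower in a fit of all 15 libraries. With GC content and length offsets in the fit, the medians were -0.18 for the respiratory list and 0.03 for the ribosomal list, with 10 respiratory genes higher and 13 lower, and 11 ribosomal genes higher and 1 lower. Medians of other lists moved in that fit too, from 0.43 to 0.2 for semaphorin, ephrin, netrin and Slit genes and from 0.38 to 0.16 for adipogenic regulators. The part of transcript length in these differences was not tested.

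Of 21 tested glycolysis genes, 1 was higher and 7 lower, or 38.1% called against 26.3% of all genes (0 and 2 without any 1 KO-labelled library, 3 and 11 without WT replicate 1, 3 and 12 without WT replicate 3), with a median log2 fold change of -0.35. Ldha, the lactate dehydrogenase of glycolytic tissue, had 325, 333 and 333 CPM in KO-labelled and 695, 517 and 517 CPM in WT-labelled libraries (-0.8 ± 0.14, adjusted p = 0.00665). The lactate exporter Slc16a3 had 0.261, 0.083 and 0.088 CPM in KO-labelled and 2.25, 1.76 and 1.70 CPM in WT-labelled libraries (-3.66 ± 0.43, adjusted p = 0.00162). Pgk1 fell by 0.59 ± 0.11 (adjusted p = 0.0087), a call lost without any 1 KO-labelled library (adjusted p up to 0.0645). Genes of the integrated stress response, which ATF4 switches on when amino acids or mitochondria fail, were 1 higher and 10 lower of 23, or 47.8% called (0 and 4 to 6 without any 1 KO-labelled library, 2 and 13 without WT replicate 1), with a median of -0.45. Psat1 of serine synthesis had 77.6, 75.1 and 77.5 CPM in KO-labelled and 151, 136 and 148 CPM in WT-labelled libraries (-0.92 ± 0.1, adjusted p = 0.00126). The mitochondrial folate enzyme Mthfd2 fell by 0.69 ± 0.1 (adjusted p = 0.00411) and the lipoprotein receptor Vldlr by 2.01 ± 0.22 (adjusted p = 0.00129).

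Unfolded protein response genes were 7 higher and 2 lower of 23, or 39.1% called against 26.3% of all genes (1 to 2 and 1 without any 1 KO-labelled library, 10 and 5 without WT replicate 1, 6 and 1 without WT replicate 2, 9 and 4 without WT replicate 3). The chaperone Canx (calnexin) had 825, 834 and 869 CPM in KO-labelled and 403, 473 and 541 CPM in WT-labelled libraries (log2 fold change 0.84 ± 0.13, adjusted p = 0.00446), and the degradation factor Herpud1 fell by 1.1 ± 0.1 (adjusted p = 0.000837). Lysosomal genes were 11 higher and 3 lower of 30, or 46.7% called (2 and 3 without any 1 KO-labelled library, 21 and 4 without WT replicate 1, 6 and 3 without WT replicate 2), with a median of 0.32. Psap, the precursor of the saposins, had 5754, 5837 and 5788 CPM in KO-labelled and 2880, 3048 and 2731 CPM in WT-labelled libraries (1.0 ± 0.1, adjusted p = 0.00103). The protease Ctsh had 3 counts in KO-labelled and 80 in WT-labelled libraries, a ratio of WT to KO of 13.5 (95% counting interval 4.45 to 66.7). Of 28 antioxidant genes, 5 were higher and 6 lower, or 39.3% called (1 and 4 without any 1 KO-labelled library, 9 and 8 without WT replicate 1, 1 and 6 without WT replicate 2). The metallothioneins Mt1 (-1.92 ± 0.3, adjusted p = 0.00498) and Mt2 (-1.92 ± 0.32, adjusted p = 0.00596), Nqo1 (-1.3 ± 0.12, adjusted p = 0.000783) and Hmox1 (-0.78 ± 0.11, adjusted p = 0.00306) fell, and all 4 lie on chromosome 8, described below.

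The largest differences between the lines concerned genes near the limit of detection in 1 of them. Dmrtc2, of a family of doublesex-related transcription factors, had 64 counts in KO-labelled and 0 in WT-labelled libraries, at least 42.2-fold higher when the WT-labelled group is set at 3 counts. Ptprq, a receptor-type phosphatase, had 51.8, 49.8 and 43.1 CPM in KO-labelled and 3.17, 3.48 and 4.73 CPM in WT-labelled libraries (log2 fold change 3.66 ± 0.19, adjusted p = 0.000139). Mpeg1, the pore-forming protein perforin 2 of macrophages and interferon-treated cells, had 21.3, 19.4 and 20.6 CPM in KO-labelled and 2.05, 2.09 and 2.81 CPM in WT-labelled libraries (3.14 ± 0.18, adjusted p = 0.000158). The macrophage marker list summed to 99.5 to 102 CPM in KO-labelled and 94.4 to 133 CPM in WT-labelled libraries, most of it Lyz2, with Adgre1 and Ptprc at 0. Of its 4 tested members only Csf1r was called, as lower (-1.52 ± 0.41, adjusted p = 0.0315). Csf1r had 19 counts in KO-labelled and 107 in WT-labelled libraries. Its call was lost without any 1 KO-labelled library or WT replicate 2. Lepr, the leptin receptor, rose by 2.93 ± 0.49, with 1.14 to 1.32 CPM against 0.051 to 0.313 CPM (adjusted p = 0.00614), and Dusp28 by 3.74 ± 0.6 (adjusted p = 0.00528).

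In the other direction, Megf6 had 0 counts in KO-labelled and 149 in WT-labelled libraries, at least 25.1-fold lower, and the ubiquitin ligase gene Mid2 had 0 counts in KO-labelled and 91 in WT-labelled libraries, at least 15.3-fold lower. The imprinted gene Mest, which rises in expanding fat tissue, had 0 counts in KO-labelled and 68 in WT-labelled libraries, at least 11.5-fold lower. The T-box factor Tbx2 had 1 count in KO-labelled and 82 in WT-labelled libraries, a ratio of WT to KO of 41.4 (95% counting interval 7.23 to 1660). Spats2l had 0.087, 0.165 and 0.088 CPM in KO-labelled and 4.2, 3.11 and 3.75 CPM in WT-labelled libraries (log2 fold change -4.92 ± 0.36, adjusted p = 0.000385). Rgs16, a regulator of G-protein signalling, fell by 4.71 ± 0.3, with 0.175 to 0.348 CPM against 6.29 to 8.09 CPM (adjusted p = 0.000227). All floors and intervals cover counting error only.

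On chromosome 8, 647 genes were tested, and 322 of them were lower (49.8%) and 15 higher (2.32%), while the share of lower genes on the other 19 chromosomes ran between 5.32% and 27.5%. The median log2 fold change on chromosome 8 was -0.56, with 86.6% of its genes below 0, and medians of the other chromosomes ran from -0.23 to 0.19. In deviations from the mean of the 6 libraries, the median chromosome 8 gene was at -0.24, -0.25 and -0.26 in KO-labelled and at 0.32, 0.27 and 0.23 in WT-labelled libraries. All 13 blocks of 10 Mb along the chromosome had a median below 0 (-0.25 to -0.80). The chromosome held 19.5% of all lower calls with 5.46% of the tested genes. Chromosome 8 was singled out after the values had been seen, so no test is given, and DNA copy number was not measured. The median was -0.51 with GC content and length offsets and -0.51 without WT replicate 1, and at day 6 it was -0.55 between the same lines and -0.20 in MIGA2-GFP cells against WT.

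Several genes named above lie there, among them Cx3cl1, Hhip, Mcm5, Orc6, Pdgfrl, Mmp2, Tpm4, Herpud1, Nqo1, Hmox1, Mt1, Mt2 and Vdac3, all lower, and Lpl and Col4a2, both higher. Of the 21 lower replication genes and the 27 lower mitosis genes, most lie elsewhere: the replication list has 6 members on chromosome 8 and the mitosis list 0. The part that the chromosome plays in the separate results was not tested.

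**Figure D4:**
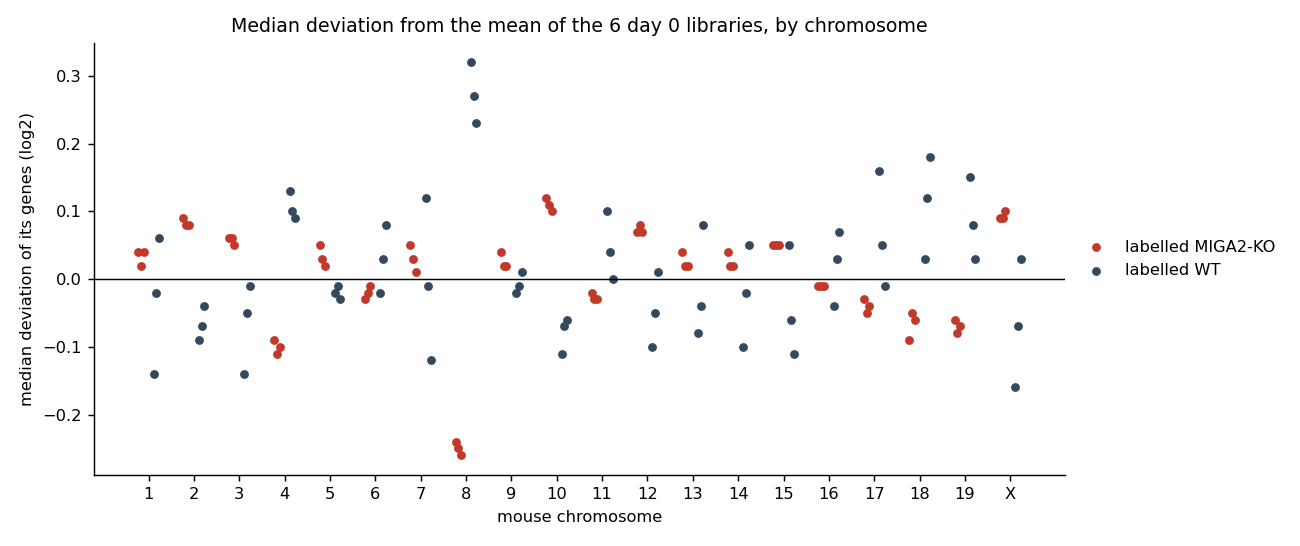
For each mouse chromosome, points give the median, over its tested genes, of the log2 deviation from the mean of the 6 day 0 libraries, with libraries labelled MIGA2-KO in red on the left and those labelled WT in dark blue on the right. Chromosome 8 stands apart, with red points at -0.24 to -0.26 and blue points at 0.23 to 0.32.

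Whether these differences outlasted differentiation was asked with the day 6 libraries of the same lines, which share no library with those of day 0. At day 6, 27.0% of tested genes were higher and 28.1% lower (55.1% in either direction). Of 1385 genes higher at day 0 and tested at both days, 842 were also higher at day 6 (60.8%) and 111 were lower (8.01%), where 27.9% of all genes tested at both days were higher. Of 1496 genes lower at day 0, 820 were also lower at day 6 (54.8%) and 113 higher (7.55%), where 26.5% of all were lower. The shared genes made up 27.0% of the higher and 27.6% of the lower list of day 6. In the library labelled MIGA2-KO replicate 1 at day 6, Miga2 was at 972 CPM without TMM scaling, against 74.4 and 71.3 in the other KO-labelled libraries and 130 to 152 in WT-labelled libraries of that day. Without it, the shared shares were 59.3% and 56.3%. Without WT replicate 1 of day 0, 52.7% of 2840 genes higher and 46.0% of 2612 lower at day 0 were called in the same direction at day 6, or 48.0% of the higher and 40.7% of the lower list of day 6.

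The interferon-stimulated genes were among those still higher, with 23 of 34 tested higher at day 6 and 6 lower. Gbp2 had a log2 fold change of 1.96 at day 6 (adjusted p = 0.000238) and Ifit1 of 4.62 (adjusted p = 0.000541). Cebpa stayed lower (-2.75, adjusted p = 6.63e-05), as did Wnt4 (-3.33, adjusted p = 0.000553) and Ntn1 (-2.27, adjusted p = 6.79e-05). Several lipid genes were lower at day 6, among them Pparg (-0.88, adjusted p = 0.000487), Fasn (-2.05, adjusted p = 6.79e-05), Scd1 (-2.08, adjusted p = 0.0134) and Lss (-1.23, adjusted p = 0.0003). The cholesterol list had 0 of 25 higher and 17 lower at day 6. Mitosis genes, lower at day 0, had 5 higher and 3 lower of 35 at day 6. The difference between the lines itself differed between the days for 21.7% of 12195 tested genes, including Pparg (1.77, adjusted p = 7.12e-06), Fasn (2.79, adjusted p = 4.87e-06) and Dcn (-3.5, adjusted p = 9.55e-07). Positive values mean a difference that is more positive at day 0. In MIGA2-GFP against WT cells at day 6, 36.8% of genes were called (17.2% higher and 19.6% lower). Of the genes higher at day 0 in KO-labelled cells, 39.5% were also higher there, and of those lower at day 0, 39.9% were lower. The 2 day 6 comparisons share their WT libraries, and neither shares a library with day 0.

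**Figure D5:**
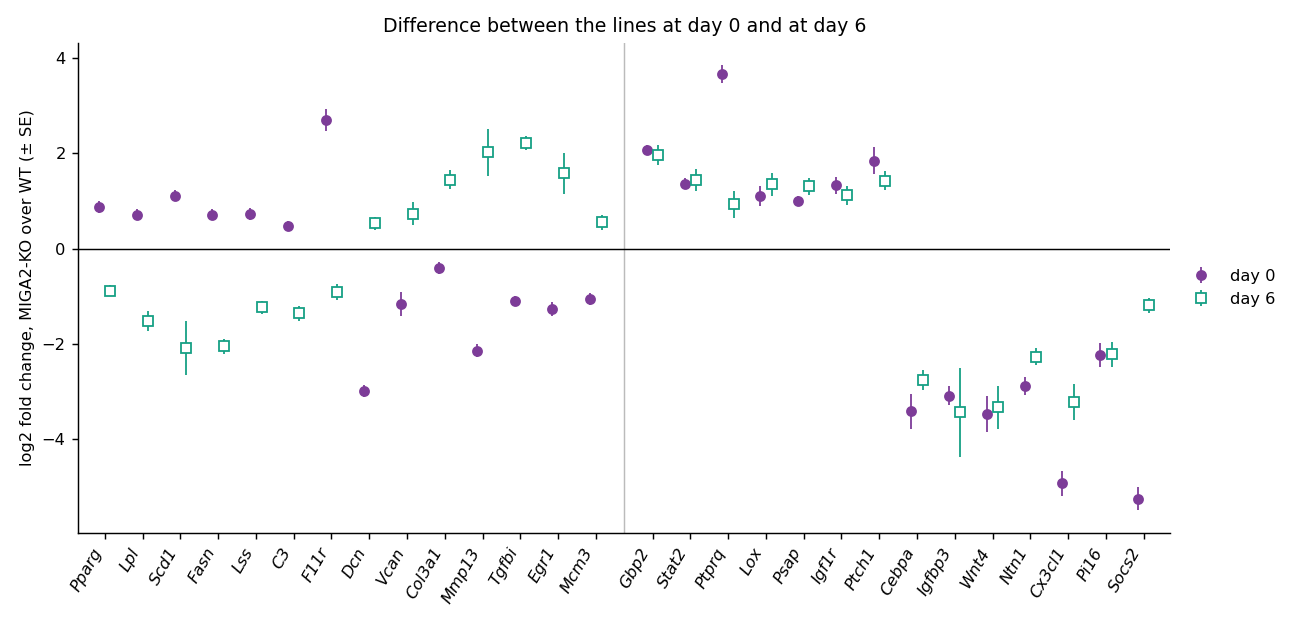
Points give the log2 fold change of libraries labelled MIGA2-KO over those labelled WT with its standard error, at day 0 (purple circles) and at day 6 (open green squares). The 14 genes on the left passed the test at both days in opposite directions, such as Pparg at 0.87 and -0.88, and the 14 genes on the right passed it at both days in the same direction.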

How the data were processed

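The authors deposited 1 table of raw counts per gene for each library. Tools named in the submitters' processing notes are bcl2fastq 2.19, Trimmomatic, STAR 2.5.4b, featureCounts and edgeR, with the build GRCm38.p5. The annotation release, strand setting and treatment of reads with several matches are not stated there, so near-identical or overlapping genes are uncertain. Libraries were grouped by their labels, 3 in each of 5 groups.

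The 25700 gene IDs were matched to GENCODE vM21, which gave a symbol to 25664. Day 0 was fitted on its 6 libraries with edgeR 4.0.16 (R 4.3.3): filterByExpr, TMM, the quasi-likelihood test, and Benjamini-Hochberg adjustment over all 11840 genes that passed, at 0.05. SE is the log2 fold change over the root of F. Day 6 and the difference between days were fitted alike. Groups at 0 counts were set at a floor of 3; counting intervals are 95%. Limits come from spread as well as depth: on simulated day 0 counts of 11880 genes, edgeR recovered 16.4% of changes of 0.5, 89.6% of 1 and 100% of 2 on the log2 scale. The simulation gave all genes and both groups the same spread. In the real libraries the median standard deviation of log2 CPM was 0.0795 in the KO-labelled and 0.266 in the WT-labelled group. The recovered shares are therefore not detection limits of the real data.

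Alternatives used DESeq2 1.42.0, limma 3.58.1 voom, other scaling and filters, thinned WT libraries, GC and length offsets (mgcv 1.9.3), all 15 libraries, the replicate number as a block, and each library left out. Genes were named by rule: both mitoguardin genes, in each direction the 15 largest called changes and the 8 largest differences in CPM, and up to 4 called members per list. Members and gene lists were chosen with earlier results of these data known.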

Additional observations from a re-analysis of the deposited data

Results flagged for a closer look

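For 64 of a set of 133 genes named above, the difference between KO-labelled and WT-labelled libraries itself differed between day 0 and day 6 (edgeR quasi-likelihood interaction term, adjusted p under 0.05 over 12195 genes). Each value below is the log2 fold change of MIGA2-KO over WT at day 0 minus that at day 6. Not every gene named above is in that set. Outside it, the markers Msln (3.01), Runx2 (-2.2) and Sox9 (-1.89) passed this test too. Higher at day 0 and lower at day 6 were 9 genes, with differences of H2-T23 (1.15), C3 (1.85), Pparg (1.77), Lpl (2.26), Scd1 (3.22), Fasn (2.79), Lss (1.98), Aldh1a7 (3.89) and F11r (3.64). The opposite pair of calls, lower at day 0 and higher at day 6, was found for 8 genes, with differences of Mcm3 (-1.58), Rrm2 (-1.48), Dcn (-3.5), Vcan (-1.87), Col3a1 (-1.83), Mmp13 (-4.14), Egr1 (-2.81) and Tgfbi (-3.29).

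A further 10 genes were higher at both days, by unequal amounts, with differences of Oas2 (-2.1), Lgals3bp (0.47), Ifit1 (-3.28), C1ra (-0.85), Csf1 (-0.62), Plau (-1.09), Vcam1 (-1.57), Acvrl1 (0.82), Fzd4 (1.17) and Ptprq (2.76). Called lower at both days were 10 genes, with differences of Cx3cl1 (-1.66), Cdkn2c (0.98), Lama4 (-0.74), Fabp4 (1.5), Cd24a (-1.33), Socs2 (-4.02), Ldha (1.39), Pgk1 (1.02), Mthfd2 (2.33) and Mt2 (2.04).

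Among genes higher at day 0, 10 did not pass the test at day 6, with differences of Irf9 (0.62), Tapbp (0.7), Col4a2 (1.18), Itga3 (1.49), Scap (0.75), Sc5d (0.61), Id4 (2.97), mt-Nd1 (1.2), mt-Nd2 (1.49) and Mpeg1 (3.24). Among genes lower at day 0, 12 did not pass it at day 6, with differences of Bub1b (-1.11), Kif2c (-1.67), Mcm5 (-1.17), Cdkn2b (-1.12), Lum (-5.49), Fmod (-1.3), Ctsk (-1.86), Mmp2 (-0.89), Lama2 (-3.98), Twist1 (-0.77), Hmox1 (-0.74) and Rgs16 (-5.33). Too low in counts for the day 6 test was 1 gene that was higher at day 0, Dmrtc2 (7.9). The same held for 4 genes that were lower at day 0, with differences of Mfap4 (-3.25), Sema7a (-4.7), Megf6 (-6.23) and Tbx2 (-4.02). The values of Dmrtc2, Megf6 and Tbx2 rest on groups at or near 0 counts and are fitted values, not bounds. Without MIGA2-KO replicate 1 of day 6, 62 of the 64 kept an adjusted p under 0.05, the exceptions being Tapbp and Cx3cl1, and without WT replicate 1 of day 0 all 64 kept it. The reason for these differences between days was not tested.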

How the results depend on the processing

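The 3117 genes called at day 0 became 6768 with limma voom and quality weights and 4743 with GC content and length offsets. Leaving out 1 library at a time gave 994 to 5771 calls. The counts were 1074, 1039 and 994 without KO-labelled replicate 1, 2 and 3, and 5771, 2001 and 3896 without WT replicate 1, 2 and 3. Median-ratio scaling, upper-quartile scaling, DESeq2, no filter, all 15 libraries and thinned WT libraries gave 3095 to 4159. A set of 133 of the genes named above was followed through the alternatives. The 129 of them that were called at day 0 kept their sign in every alternative run that tested them. Of the 4 uncalled ones, Vapa (-0.08) turned positive with voom (0.09) and without WT replicate 1 (0.02), and ran from -0.18 to 0.02 over the left-out libraries. Vapb gained a call with DESeq2 (0.38), voom (0.47), all 15 libraries (0.37) and without WT replicate 1 (0.49), and Miga2 (0.38) gained one without WT replicate 1. Vapb dropped to 0.08 with GC content and length offsets. GC content and length offsets moved the log2 fold change of 10 of the 129 called genes by over 1.5 times, all toward 0 and all still called: Cdkn2b -0.63, Cdkn1a -0.39, Col4a2 0.49, Col18a1 0.27, Fasn 0.36, Atp5o -0.61, Ldha -0.52, Pgk1 -0.33, Hmox1 -0.46 and Rrm1 0.41. Voom moved Fabp4 to -0.40, and Cxcl16 and Mest, which are at 0 counts in 1 group. Of 46 gene lists, a count moved by over 1.5 times in 39 with voom, 31 with GC content and length offsets, 16 with DESeq2, 16 with all 15 libraries, 8 with upper-quartile scaling, 8 with no filter, 2 with median-ratio scaling and 1 with thinned WT libraries. With voom all 46 lists had more calls, and without WT replicate 1 likewise; without any 1 KO-labelled library 44 had fewer. With 1 library left out, MIGA2-GFP against WT at day 6 had 2051 to 7424 calls, MIGA2-KO against WT at day 6 had 4717 to 7689, and the difference between days 1849 to 4363. With the replicate number as a block, the day 0 count was 3220, of which 2738 were also called without the block, and 12 lists had a count moved. Deviations of same-numbered libraries correlated at 0.0963, 0.00865 and 0.135, so the numbers were not taken to pair the samples. The block gave 5810 calls for MIGA2-KO and 3704 for MIGA2-GFP against WT at day 6, and 1937 for the difference between days. On chromosome 8 the median relative to all genes ran from -0.56 to -0.5 over the alternatives. The causes of these shifts were not tested.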
